A study of Mus musculus with 12 samples.

Results

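NRF2 is the transcription factor that switches on antioxidant and detoxifying genes, and its gene is Nfe2l2. This is an account of Nfe2l2, of Keap1, which encodes its inhibitor, and of 8 genes known as NRF2 targets (Nqo1, Hmox1, Gclc, Gclm, Txnrd1, Srxn1, Cbr3 and Slc7a11) in mouse glomeruli during anti-glomerular basement membrane glomerulonephritis (anti-GBM GN). The members were chosen by gene symbol, through probe sets annotated with exactly 1 symbol, and each gene was read from its probe set with the highest mean signal. All 10 had a probe set, among 18193 genes that had one. Of these, 9 passed the filter on low signals, which left 11920 genes for the tests, and Slc7a11 did not pass.

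The study compared 4 groups of 3 samples from female mice aged 8 to 10 weeks, which the labels give as 129S2SvPAs with anti-GBM GN, 129S2SvPAs control, C57BL6J with anti-GBM GN and C57BL6J control. In this model nephrotoxic serum, which carries antibodies against the glomerular basement membrane, was injected on days 0, 1 and 2 and mice were killed on day 4. The labels repeat this protocol for the control mice and do not say separately what controls received. Glomeruli, the filtering units of the kidney, were isolated through nylon sieves of 100 and 45 µm, and RNA of each sample was hybridised to 1 Affymetrix array. The labels do not say whether replicates are single animals, so p-values measure the spread between these samples, which may be partly technical. Neither strain is labelled with a transgene or an engineered deletion, and both came from a commercial breeder.

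In unstressed cells KEAP1 holds NRF2 in the cytoplasm and hands it to a CUL3 ubiquitin ligase, which marks it for breakdown. Oxidants and electrophiles modify cysteines of KEAP1, NRF2 then escapes, enters the nucleus, pairs with a small MAF protein and binds antioxidant response elements. NRF2 is therefore controlled largely at the protein level, and the message of Nfe2l2 need not follow its activity. In the kidney this pathway is known for limiting oxidative injury of tubular and glomerular cells.

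The core of an antioxidant response element is commonly written TGACNNNGC or TGAGNNNGC. Promoter windows covering the 250 bases before an annotated start were taken from RefSeq (GRCm38.p6) for 8 members with 10 windows, 3 of them for Txnrd1; Hmox1 and Gclc were not matched. On either strand, 5 of the 8 members held at least 1 match, 6 matches in all. Counted by window, the unit of the shares that follow, 5 of the 10 windows held a match. Over all 32536 such windows 10.2% held TGACNNNGC, 14.5% held TGAGNNNGC and 23.2% held either. The windows below belong to 3 of the 4 members that passed the test in 129S2SvPAs mice; matches are in capitals, and the sequences are those of the reference genome, not of the 129S2SvPAs strain.
Srxn1, chr2:152105274-152105523, plus strand: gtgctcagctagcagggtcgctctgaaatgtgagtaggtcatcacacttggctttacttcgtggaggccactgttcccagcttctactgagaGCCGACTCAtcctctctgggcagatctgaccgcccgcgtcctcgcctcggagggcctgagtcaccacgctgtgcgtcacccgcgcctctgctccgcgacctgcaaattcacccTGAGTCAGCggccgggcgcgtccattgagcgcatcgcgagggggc
Txnrd1, chr10:82858956-82859205, plus strand: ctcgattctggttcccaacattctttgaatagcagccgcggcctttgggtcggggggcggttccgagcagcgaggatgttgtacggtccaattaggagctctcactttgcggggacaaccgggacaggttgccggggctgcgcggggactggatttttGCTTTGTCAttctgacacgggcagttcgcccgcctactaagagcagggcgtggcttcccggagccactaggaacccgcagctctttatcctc
Cbr3, chr16:93682969-93683218, plus strand: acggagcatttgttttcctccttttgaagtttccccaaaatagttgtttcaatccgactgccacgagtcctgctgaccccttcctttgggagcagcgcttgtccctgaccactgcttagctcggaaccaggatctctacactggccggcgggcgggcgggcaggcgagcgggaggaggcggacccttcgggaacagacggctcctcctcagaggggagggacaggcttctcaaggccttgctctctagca
Counted from the start site, the Srxn1 match at position -45 reads along the gene and also spells TGAGTCA, the motif of AP-1, while the match at -158 reads on the opposite strand. The Txnrd1 match at -92 reads on the opposite strand, and the other Txnrd1 windows had none. The Cbr3 window had no match, nor had those of Keap1 and Nqo1. Single matches lay at -240 in Nfe2l2, -134 in Gclm and -97 in Slc7a11. A match is a description of letters, and binding was not measured. Sequence outside these 250 bases was not searched, so a window without a match does not mean a gene without a response element.

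All values below are log2 probe set signals as deposited, 1 unit being a doubling, between 1.12 and 15.02 over the whole table. Array medians lay between 2.99 and 3.06, near the floor of the table; shifting each array to 1 common median and quantile normalization left the counts of called members as given below. Levels were compared between samples for 1 probe set at a time and never between genes. Differences are given with the standard error (SE) or the 95% confidence interval of limma's moderated test, fitted over all 12 arrays, and p-values were Benjamini-Hochberg adjusted over the 11920 genes. Genes with an adjusted p under 0.05 are termed called. In the C57BL6J response and between controls, deviations of same-numbered arrays correlated at 0.208 to 0.33 and at 0.239 to 0.284, so those comparisons were also fitted with same-numbered arrays as pairs; calls that change with the pairs are given beside the results. The number of arrays limits the precision. Array 1 of the 129S2SvPAs anti-GBM GN group correlated with the other arrays of its group at 0.986 and 0.9859 over all probe sets. These were the lowest of all pairs within a group, where the highest was 0.9967. Member calls that change without array 1 of that group are given as they arise.

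The glomerular identity of the samples varied between the strains. The 13 podocyte markers with a probe set (such as Nphs1, Wt1 and Synpo) had array means of 6.57 to 6.72 in 129S2SvPAs anti-GBM GN and 6.65 to 7.32 in 129S2SvPAs controls, against 7.60 to 8.40 in C57BL6J anti-GBM GN and 8.03 to 8.63 in C57BL6J controls. The 24 proximal tubule markers averaged 11.26 to 11.39 in 129S2SvPAs anti-GBM GN against 12.00 to 12.23 in 129S2SvPAs controls, and 11.51 to 11.83 in C57BL6J anti-GBM GN against 11.86 to 12.08 in C57BL6J controls, so RNA of tubules was present on every array. The 15 macrophage markers averaged 3.92 to 4.03 in 129S2SvPAs anti-GBM GN against 3.79 to 4.39 in its controls, and 4.31 to 5.0 in C57BL6J anti-GBM GN against 4.23 to 4.68 in its controls. Itgam and Fcgr1 among them exceeded the filter of 3.03 on no array. In such bulk samples, more cells of a type and more RNA per cell cannot be told apart.

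In 129S2SvPAs mice the 4 members Hmox1, Cbr3, Txnrd1 and Srxn1 rose with anti-GBM GN, and in C57BL6J mice no member was called without pairs and Hmox1 alone was called higher with same-numbered arrays as pairs. The rises in 129S2SvPAs ran between 1.59-fold for Srxn1 and 16.4-fold for Hmox1. The messages of the pathway's own regulators, Nfe2l2 and Keap1, were not called in either strain in the main fit, nor in C57BL6J with pairs. Neither were Nqo1, Gclc or Gclm. The responses of Cbr3 and Txnrd1 were larger in 129S2SvPAs by the test of the difference itself, and neither gene was called in the C57BL6J response. With single arrays left out that difference was called in 8 of 12 fits for Cbr3 and in 5 of 12 for Txnrd1.

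**Figure D1:**
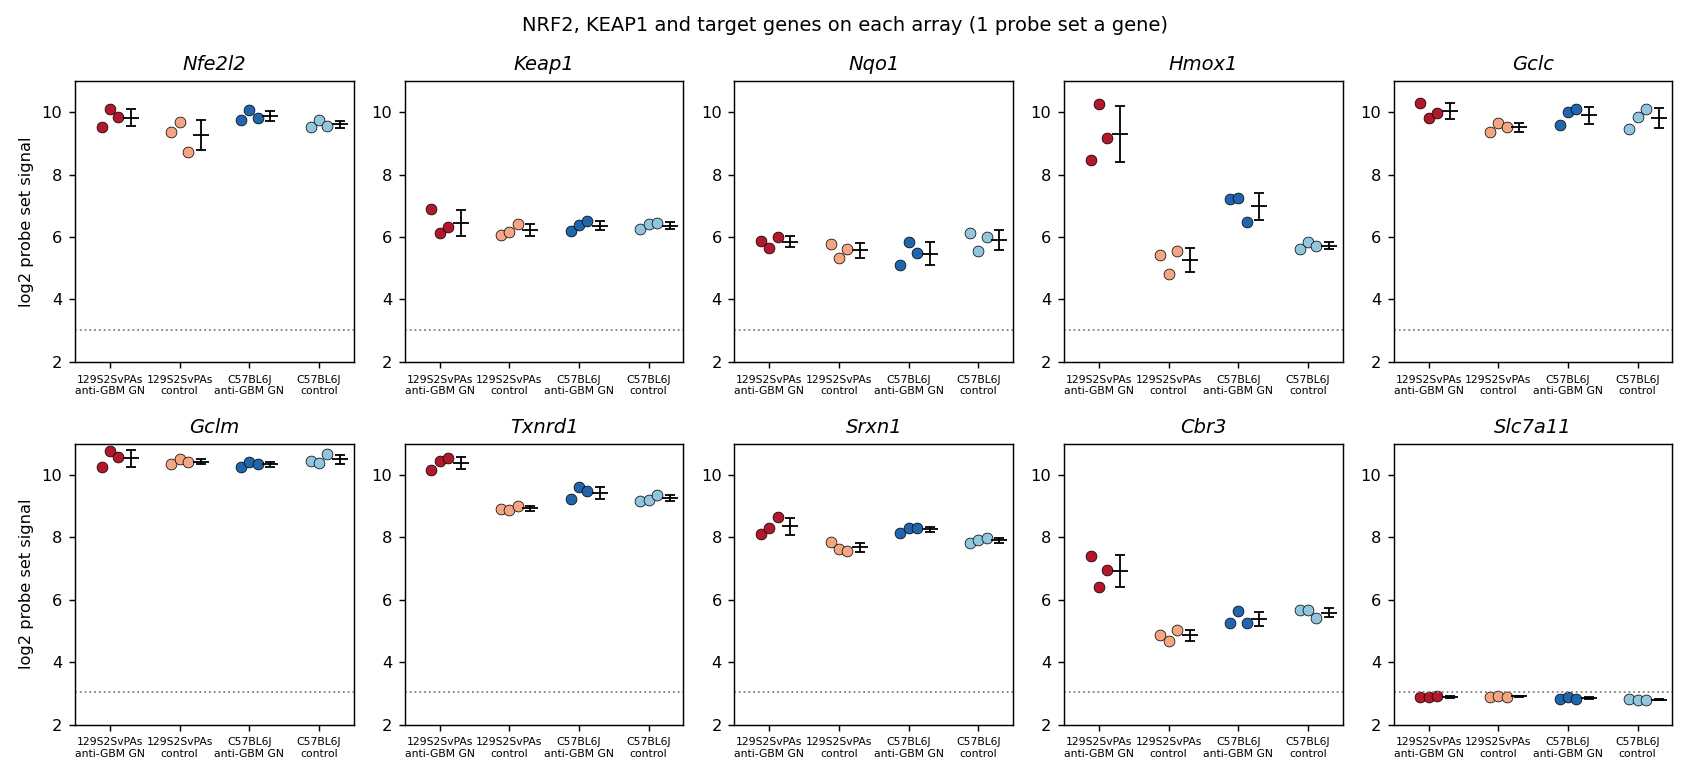
Log2 probe set signal (vertical axis) of each of the 10 genes on each of the 12 arrays, by group; points are arrays, bars are mean ± SD (n = 3), and the dotted line is the filter at 3.03. Hmox1, Txnrd1 and Cbr3 in 129S2SvPAs anti-GBM GN lie above all other groups, whereas Slc7a11 lies below the filter on every array.

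Hmox1 encodes heme oxygenase 1, the inducible enzyme that breaks heme down to biliverdin, iron and carbon monoxide. Its log2 signal was 8.48, 10.25 and 9.18 in 129S2SvPAs anti-GBM GN, against 5.42, 4.83 and 5.56 in 129S2SvPAs controls. C57BL6J arrays gave 7.21, 7.26 and 6.48 in anti-GBM GN, against 5.61, 5.85 and 5.72 in controls. The groups did not overlap in either strain, and the 3 challenged 129S2SvPAs arrays all lay above the challenged C57BL6J arrays. The rise in 129S2SvPAs was 4.03 on the log2 scale (SE 0.39, adjusted p = 7.41e-05), the 12th largest of the 11920 genes. In C57BL6J the difference was 1.26 (SE 0.39), 2.39-fold, with an adjusted p of 0.0841, which missed the threshold. With same-numbered C57BL6J arrays as pairs, whose differences were 1.60, 1.41 and 0.76, it did pass (SE 0.19, adjusted p = 0.0253). It also passed in a fit of the C57BL6J groups alone without pairs, with array weights, and without array 1 or array 2 of 129S2SvPAs anti-GBM GN, which enter it only through the shared estimate of the spread.

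The response of Hmox1 was 2.78 larger in 129S2SvPAs (95% interval 1.57 to 3.98), the 3rd largest such difference of all genes tested. Its adjusted p was 0.0586, so it was not called. It was called without array 1 of 129S2SvPAs anti-GBM GN, where the difference was 3.19 with an adjusted p of 0.0143, and in none of the other 11 omissions; over all 12 the adjusted p ran between 0.0143 and 0.159. With array weights it was called as well, at 3.33 with an adjusted p of 0.00627. Heme oxygenase 1 is also abundant in macrophages, and of the 11 macrophage markers tested none was called in either strain's response, except Cd68, 0.98 higher in challenged C57BL6J mice with pairs (adjusted p = 0.0194). The part of macrophages in the Hmox1 results was not tested.

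Txnrd1 encodes thioredoxin reductase 1, the cytosolic selenoenzyme that uses NADPH to keep thioredoxin reduced. It gave 10.16, 10.44 and 10.54 in 129S2SvPAs anti-GBM GN, against 8.90, 8.87 and 9.01 in 129S2SvPAs controls. In C57BL6J the values were 9.22, 9.60 and 9.47 in anti-GBM GN, against 9.18, 9.21 and 9.36 in controls, and there the groups overlapped. The lowest challenged 129S2SvPAs array lay more than a unit above the highest control array of that strain. Txnrd1 rose by 1.45 in 129S2SvPAs (SE 0.13, adjusted p = 5.7e-05, 2.74-fold), while the C57BL6J difference was 0.18 (interval -0.11 to 0.47, adjusted p = 0.501). The difference between the responses was 1.27 (SE 0.19, adjusted p = 0.0222). Leaving out single arrays moved that difference only between 1.17 and 1.38, but its adjusted p between 0.00944 and 0.0683, and it was called in 5 of the 12 fits.

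Srxn1 encodes sulfiredoxin, which repairs over-oxidised peroxiredoxins. It gave 8.11, 8.31 and 8.64 in 129S2SvPAs anti-GBM GN, against 7.85, 7.63 and 7.56 in 129S2SvPAs controls. C57BL6J mice had 8.15, 8.30 and 8.31 in anti-GBM GN, against 7.81, 7.92 and 7.97 in controls. Challenged and control arrays did not overlap in either strain, and the challenged arrays of both strains covered much the same range. The rise in 129S2SvPAs was 0.67 (SE 0.14, adjusted p = 0.00696) and the C57BL6J difference was 0.35 (SE 0.14, adjusted p = 0.178). The C57BL6J differences between same-numbered arrays were 0.34, 0.38 and 0.34, and with pairs the adjusted p was 0.076. The 129S2SvPAs rise of Srxn1 was not called when only the 129S2SvPAs groups were fitted. The difference between the responses was 0.32 (interval -0.12 to 0.76, adjusted p = 0.639) and was not called. The promoter window of Srxn1 is the only one of those printed with 2 matches, as shown above.

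Cbr3 encodes carbonyl reductase 3, an NADPH-dependent enzyme for carbonyl compounds. It gave 7.40, 6.40 and 6.96 in 129S2SvPAs anti-GBM GN, against 4.88, 4.68 and 5.03 in 129S2SvPAs controls. C57BL6J mice had 5.25, 5.65 and 5.24 in anti-GBM GN, against 5.67, 5.66 and 5.43 in controls. Every challenged 129S2SvPAs array exceeded every other array of the study, and the 129S2SvPAs controls were the lowest. Cbr3 rose by 2.06 in 129S2SvPAs (SE 0.22, adjusted p = 0.00015, 4.16-fold). The C57BL6J difference was -0.21 (interval -0.70 to 0.29, adjusted p = 0.682). The responses differed by 2.26 (SE 0.32, adjusted p = 0.0193), the 14th largest of all genes. Leaving out single arrays kept this between 2.02 and 2.52, with adjusted p between 0.00619 and 0.0644, and 8 of the 12 fits called it.

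**Figure D2:**
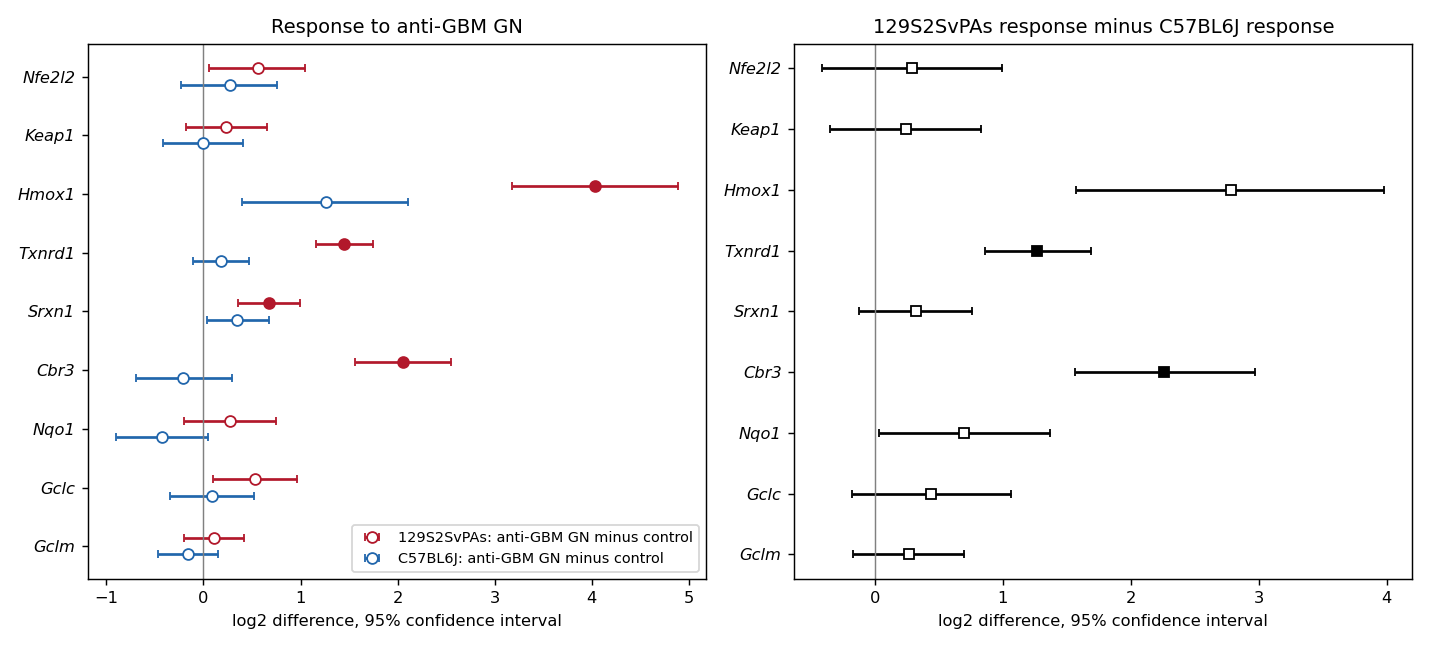
Left, log2 difference between anti-GBM GN and control arrays for the 9 members tested, in 129S2SvPAs (red) and C57BL6J (blue); right, the 129S2SvPAs response minus the C57BL6J response. Bars are 95% confidence intervals of the limma fit (3 arrays a group), and filled symbols are called: Hmox1, Txnrd1, Srxn1 and Cbr3 on the left in 129S2SvPAs only, Txnrd1 and Cbr3 on the right.

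Beside these rises the proximal tubule markers were lower. In 129S2SvPAs 9 of 23 tested markers were called lower and none higher, with a median difference of -0.57. In C57BL6J 2 of 23 were called lower (3 with pairs), with a median of -0.14. Of all genes 9.77% were called lower in 129S2SvPAs and 2.31% in C57BL6J (4.26% with pairs). The range of the marker mean did not overlap between challenged and control 129S2SvPAs arrays. With the marker mean as a covariate the 129S2SvPAs differences were 3.49 (SE 1.25) for Hmox1, 1.82 (SE 0.41) for Txnrd1, 0.97 (SE 0.44) for Srxn1 and 1.09 (SE 0.65) for Cbr3, and none was called. The differences of the responses then were 1.63 (SE 0.50) for Cbr3 and 1.51 (SE 0.31) for Txnrd1, not called either. In that fit no gene at all was called in the 129S2SvPAs response, and the SEs of these members were larger than without the covariate. The part of tubule content in these results was not tested beyond that fit.

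Markers of other cells moved in the 129S2SvPAs response too, in which 10.6% of all genes were called higher and 9.77% lower. Of 14 tested markers of the nephron beyond the proximal tubule, collecting duct included, 6 fell and 1 rose. Their array means were 8.29 to 8.70 in 129S2SvPAs anti-GBM GN against 9.29 to 9.38 in its controls. Calb1 fell by 2.28 and Pvalb by 3.76, and Aqp2 rose by 1.56. Of 12 endothelial markers 5 rose and 1 fell, with array means of 8.69 to 8.96 against 7.41 to 8.84 in the same order. Robo4 rose by 2.45 and Pecam1 by 2.67, and Ehd3 fell by 2.56. Of 8 mesangial markers 3 rose and 0 fell, with array means of 7.25 to 7.58 against 6.37 to 6.86; Acta2 rose by 2.33 and Des by 1.81. Of 13 podocyte markers 3 rose and 3 fell. The part of these cells in the members' rises was not tested.

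**Figure D3:**
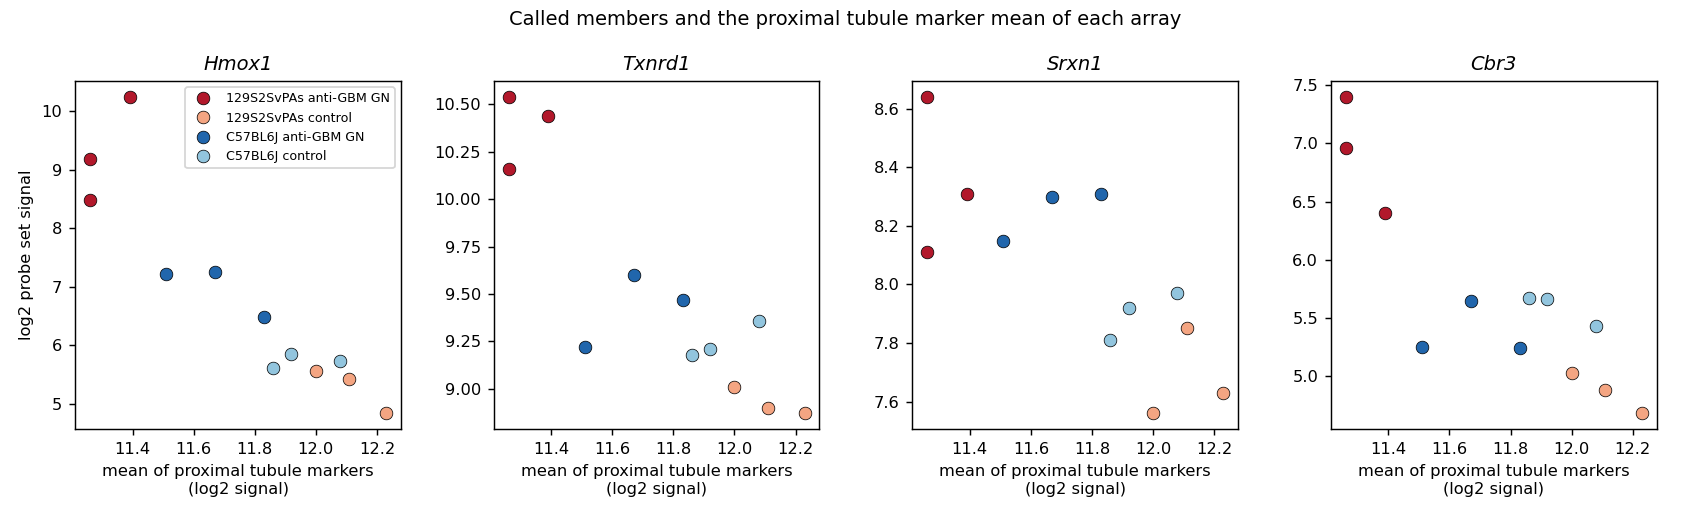
Log2 signal of the 4 called members (vertical axes) against the mean log2 signal of 24 proximal tubule markers on the same array (horizontal axes), 12 arrays, coloured by group. The 3 challenged 129S2SvPAs arrays have the lowest tubule means, 11.26 to 11.39, and the 129S2SvPAs controls mostly the highest, 12.00 to 12.23.

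Nfe2l2 itself gave 9.54, 10.09 and 9.84 in 129S2SvPAs anti-GBM GN, against 9.38, 9.68 and 8.74 in 129S2SvPAs controls. The C57BL6J values were 9.76, 10.07 and 9.81 in anti-GBM GN, against 9.52, 9.75 and 9.57 in controls, or 0.24, 0.32 and 0.24 higher by number. Control array 3 of 129S2SvPAs was the lowest of all, and the C57BL6J groups were barely separated. The differences were 0.56 (interval 0.06 to 1.05, adjusted p = 0.107) in 129S2SvPAs and 0.27 (interval -0.23 to 0.76, adjusted p = 0.565, or 0.135 with pairs) in C57BL6J. The 129S2SvPAs difference was 0.29 without its control array 3 (adjusted p = 0.313), and it was called without its control array 2 (0.76, adjusted p = 0.0369) and with array weights (0.60, adjusted p = 0.0243). A second probe set of Nfe2l2, dimmer at 4.48 to 6.20, gave 0.37 in 129S2SvPAs and -0.70 in C57BL6J, neither called. Between challenged mice that second probe set was higher in 129S2SvPAs, at 5.80 ± 0.40 against 4.57 ± 0.10 in C57BL6J (SD, n = 3 each), a difference of 1.24 with an adjusted p of 0.00442 over all probe sets. The brighter probe set gave -0.06 for the same comparison, so the probe sets disagree on the strain difference of Nfe2l2.

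Keap1 encodes the sensor that holds NRF2 back. Its signal was 6.91, 6.12 and 6.33 in 129S2SvPAs anti-GBM GN, against 6.08, 6.15 and 6.43 in 129S2SvPAs controls. In C57BL6J the values were 6.20, 6.39 and 6.50 in anti-GBM GN, against 6.25, 6.41 and 6.44 in controls. Only array 1 of the challenged 129S2SvPAs mice stood above the rest. The differences were 0.23 (interval -0.18 to 0.65) in 129S2SvPAs and 0.00 (interval -0.42 to 0.41) in C57BL6J, so a change of 1 unit lies outside both intervals. With single arrays left out the 129S2SvPAs difference ran between 0 and 0.4, lowest without array 1 of the challenged group. A dimmer probe set of Keap1, at 3.19 to 4.24, gave -0.19 in 129S2SvPAs and -0.08 in C57BL6J.

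Gclc and Gclm encode the catalytic and modifier subunits of glutamate-cysteine ligase, which makes the first step of glutathione synthesis. Gclc gave 10.31, 9.83 and 9.99 in 129S2SvPAs anti-GBM GN, against 9.37, 9.64 and 9.53 in 129S2SvPAs controls, without overlap. In C57BL6J, where the groups overlapped, Gclc gave 9.58, 10.02 and 10.10 in anti-GBM GN, against 9.47, 9.85 and 10.11 in controls. The differences of Gclc were 0.53 (interval 0.10 to 0.96, adjusted p = 0.0839) and 0.09 (interval -0.34 to 0.52, adjusted p = 0.871), in that strain order. A dimmer probe set of Gclc, at 8.19 to 9.04, gave 0.22 in 129S2SvPAs and -0.01 in C57BL6J.

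Gclm gave 10.25, 10.78 and 10.58 in 129S2SvPAs anti-GBM GN, against 10.35, 10.50 and 10.43 in 129S2SvPAs controls. The C57BL6J arrays gave 10.27, 10.42 and 10.34 in anti-GBM GN, against 10.45, 10.38 and 10.67 in controls, so its groups overlapped in both strains. The difference was 0.11 in 129S2SvPAs and -0.16 in C57BL6J. A dimmer probe set of Gclm fell in 129S2SvPAs by 0.76, to 7.45 ± 0.37 in anti-GBM GN against 8.21 ± 0.06 in controls (SD, n = 3 each; adjusted p = 0.00909 over all probe sets), and gave -0.40 in C57BL6J without a call. The 2 probe sets of Gclm thus disagree in 129S2SvPAs.

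Nqo1 encodes NAD(P)H quinone dehydrogenase 1, which reduces quinones and is a widely used reporter of NRF2 activity. It gave 5.87, 5.66 and 6.01 in 129S2SvPAs anti-GBM GN, against 5.79, 5.32 and 5.61 in 129S2SvPAs controls. In C57BL6J it gave 5.10, 5.83 and 5.48 in anti-GBM GN, against 6.14, 5.54 and 6.01 in controls. All 4 groups overlapped with at least one other. The differences were 0.27 in 129S2SvPAs (interval -0.20 to 0.75) and -0.43 in C57BL6J (interval -0.90 to 0.05), and the difference between them was 0.70 (interval 0.03 to 1.37, adjusted p = 0.443).

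Slc7a11 encodes the light subunit of the cystine importer that feeds glutathione synthesis. It gave 2.87, 2.87 and 2.92 in 129S2SvPAs anti-GBM GN, against 2.90, 2.92 and 2.90 in 129S2SvPAs controls. In C57BL6J it gave 2.82, 2.88 and 2.83 in anti-GBM GN, against 2.81, 2.79 and 2.79 in controls. Its other probe set lay between 2.10 and 2.17. Both stayed below the filter on every array, near the floor of the table, so a change of Slc7a11 was not detectable here.

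Among the probe sets not used, those of Txnrd1 lay between 1.93 and 2.82, under the filter on every array. For Srxn1 a dimmer probe set gave 0.36 in 129S2SvPAs with an adjusted p of 0.0871 over all probe sets and 0.20 in C57BL6J, the same direction as the probe set used, and another gave -0.20 and 0.17 at a level of 3.19 to 3.87. When all probe sets of a gene were averaged, the 129S2SvPAs rise was 0.54 for Txnrd1, still called, and 0.27 for Srxn1, no longer called. The difference of the Txnrd1 responses then was 0.47 with an adjusted p of 0.0796. Hmox1, Cbr3 and Nqo1 have a single probe set each.

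As a group, 4 of 9 tested members were called higher and 0 lower in the 129S2SvPAs response, where 10.6% of all genes were called higher and 9.77% lower. All 9 were positive, against 50.5% of all genes, and their median was 0.56, against 0.00 for all genes. On tested probe sets not used, the 129S2SvPAs difference was -0.76 for Gclm, -0.19 for Keap1 and -0.20 for 1 of Srxn1. It was positive for those of Nfe2l2 and Gclc and for another of Srxn1. In the C57BL6J response 0 of 9 were called in either direction, with backgrounds of 4.78% higher and 2.31% lower. With pairs 1 of 9 was called higher, where 6.48% of all genes were called higher and 4.26% lower. Without them 5 of 9 were positive, against 44.4% of all genes, with a median of 0.09 against -0.03.

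For the difference of the responses, 129S2SvPAs minus C57BL6J, 2 of 9 members were called higher and 0 lower, where the backgrounds were 0.268% and 0.294%. All 9 differences were positive, against 54.3% of all genes, and ran between 0.24 for Keap1 and 2.78 for Hmox1. Their median was 0.44, against 0.03 for all genes. On tested probe sets not used, the difference was -0.37 for Gclm, -0.11 for Keap1 and -0.37 for 1 of Srxn1. It was positive for those of Nfe2l2 and Gclc and for another of Srxn1. The genes were chosen as a known pathway with results of these data in view, so these counts are a description of the group and carry no test of their own.

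**Figure D4:**
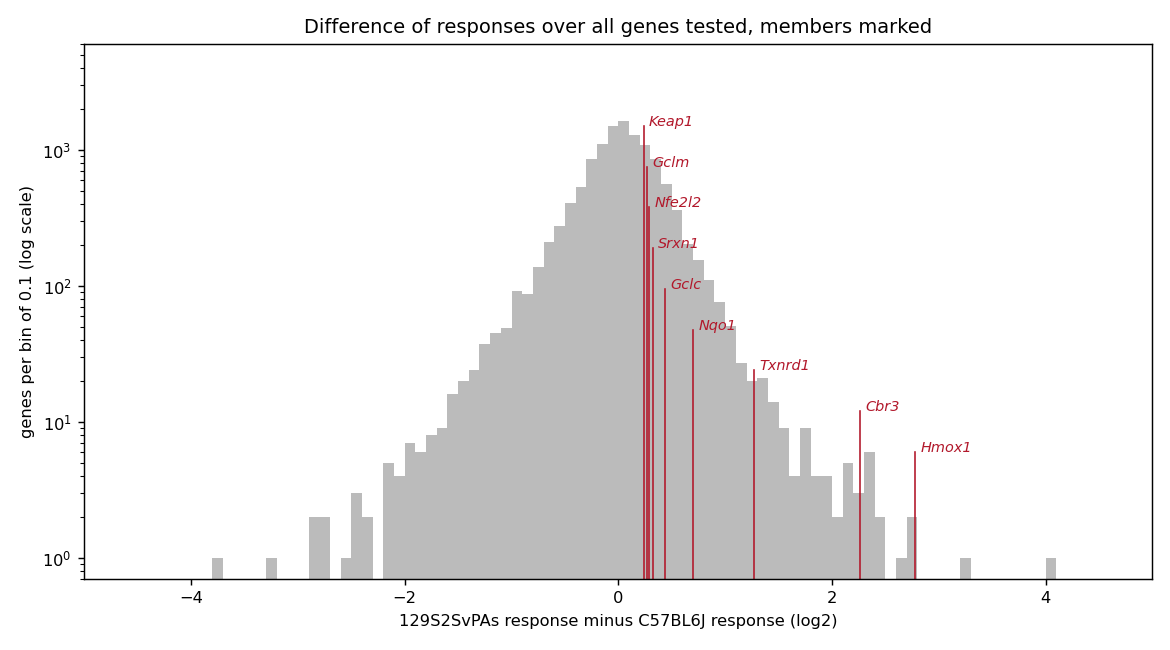
Number of genes (vertical axis, log scale) by the 129S2SvPAs response minus the C57BL6J response (log2, bins of 0.1) over the 11920 genes tested; red lines mark the 9 members, at heights set only for legibility. All 9 members are on the positive side, with Hmox1, Cbr3 and Txnrd1 in the upper tail at 2.78, 2.26 and 1.27.

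Comparing the strains within each treatment shows where the difference lies. Between challenged mice, 3 of 9 members were called higher in 129S2SvPAs and 0 lower, with backgrounds of 3.49% higher and 4.89% lower. These were Hmox1, by 2.32 (SE 0.39, adjusted p = 0.004, 4.99-fold), Cbr3, by 1.54 (SE 0.22, adjusted p = 0.00179, 2.91-fold), and Txnrd1, by 0.95 (SE 0.13, adjusted p = 0.00137, 1.93-fold). Each stayed called whichever single array was left out. With the tubule marker mean as a covariate only Txnrd1 was called (1.12, adjusted p = 0.0395). Hmox1 then gave 2.08 (adjusted p = 0.202) and Cbr3 1.11 (adjusted p = 0.194). The marker means of the challenged groups did not overlap, at 11.26 to 11.39 in 129S2SvPAs against 11.51 to 11.83 in C57BL6J. That fit therefore cannot tell tubule content and strain apart, for Txnrd1 or for the others. For all 3 members the challenged 129S2SvPAs arrays lay above the challenged C57BL6J arrays without overlap. With array weights Gclm was called as well (0.35, adjusted p = 0.0485), and with the mean of all probe sets Nfe2l2 was (0.59, adjusted p = 0.0476). The other members tested differed between challenged mice by -0.06 for Nfe2l2 to 0.38 for Nqo1.

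Between control mice 0 of 9 members were called, with backgrounds of 3.32% higher and 5.11% lower, and 0 of 9 with pairs, where the backgrounds were 2.82% and 5.07%. All 9 differences were negative, that is lower in 129S2SvPAs, against 50.5% of all genes, with a median of -0.32 against 0.00. They ran between -0.72 for Cbr3 (interval -1.22 to -0.23, adjusted p = 0.0778) and -0.07 for Gclm. Cbr3 was called lower without array 1 or array 2 of 129S2SvPAs anti-GBM GN, which enter only through the shared estimate of the spread. On tested probe sets not used, the difference was 0.17 for Nfe2l2, 0.20 for Keap1, and 0.16 and 0.02 for Srxn1. It was -0.28 for Gclc and 0.00 for Gclm. For Cbr3, Txnrd1 and Hmox1 the control groups did not overlap, with means of 4.86 ± 0.18, 8.93 ± 0.07 and 5.27 ± 0.39 in 129S2SvPAs controls, against 5.59 ± 0.14, 9.25 ± 0.10 and 5.73 ± 0.12 in C57BL6J controls (SD, n = 3 each). The responses, their difference and the strain comparisons use the same 12 arrays and are not independent of each other. Podocyte markers also separated the strains: 11 of 13 were lower in 129S2SvPAs between controls (8 with pairs) and 6 of 13 between challenged mice. The all-gene shares are the 5.11% and 4.89% given above. Of 12 endothelial markers 5 were lower in 129S2SvPAs between controls (7 with pairs) and 1 between challenged mice. Of 4 tested neutrophil markers 2 were lower between controls and 1 between challenged mice. Of the 11 macrophage markers tested Csf1r, Ptprc and Tyrobp were lower in challenged 129S2SvPAs mice. The part of these cells in the strain differences was not tested.

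The order of the group means was the same for Hmox1 and Txnrd1: 129S2SvPAs anti-GBM GN, C57BL6J anti-GBM GN, C57BL6J control and 129S2SvPAs control, high to low. For Cbr3 the C57BL6J groups changed places, at 5.38 ± 0.23 in anti-GBM GN against 5.59 ± 0.14 in controls (SD, n = 3 each), and did not differ beyond their spread. For Txnrd1 the C57BL6J groups overlapped too. For Srxn1 the means were 8.35 ± 0.27 in 129S2SvPAs anti-GBM GN, 7.68 ± 0.15 in 129S2SvPAs controls, 8.25 ± 0.09 in C57BL6J anti-GBM GN and 7.90 ± 0.08 in C57BL6J controls, and neither the challenged groups nor the control groups were separated from each other.

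The wider pathway was read through lists chosen with earlier results of these data known, and their counts stand against the shares of all genes given above: 10.6% higher and 9.77% lower in the 129S2SvPAs response, and 4.78% higher and 2.31% lower in the C57BL6J response. Of 9 tested partners and regulators of NRF2, Maff rose in both strains and Sqstm1 in 129S2SvPAs, or in both strains with pairs in C57BL6J, and none fell. Maff encodes a small MAF protein, a class of partners of NRF2. It gave 4.99, 5.56 and 5.97 in 129S2SvPAs anti-GBM GN, against 2.74, 2.56 and 3.28 in 129S2SvPAs controls. Its C57BL6J values were 5.89, 5.81 and 5.03 in anti-GBM GN, against 2.66, 2.50 and 2.53 in controls. The rises were 2.65 (SE 0.29, adjusted p = 0.000148) in 129S2SvPAs and 3.01 (SE 0.29, adjusted p = 0.000151) in C57BL6J, and all control arrays lay under the filter except array 3 of 129S2SvPAs. With control values under the filter set to it, the rises are at least 5.25-fold in 129S2SvPAs and 5.84-fold in C57BL6J, and Maff was tested only through its challenged arrays. Sqstm1 encodes p62, an adaptor that can sequester KEAP1, and rose by 0.65 in 129S2SvPAs (adjusted p = 0.0387). Cul3, the scaffold of the ligase, averaged 9.66 ± 0.41 in 129S2SvPAs anti-GBM GN against 9.66 ± 0.17 in 129S2SvPAs controls, and 9.71 ± 0.08 in C57BL6J anti-GBM GN against 9.78 ± 0.03 in C57BL6J controls (SD, n = 3 each).

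Of 17 tested glutathione S-transferases, which attach glutathione to toxic compounds, 6 fell in 129S2SvPAs and 4 in C57BL6J, and none rose; the medians were -0.42 and -0.32, and 5 fell in C57BL6J with pairs. Of all genes 9.77% fell in 129S2SvPAs and 2.31% in C57BL6J. Gstk1 fell by 0.89 (adjusted p = 0.000236) in 129S2SvPAs and by 0.66 (adjusted p = 0.00356) in C57BL6J, and Gstt2 fell by 1.37 (adjusted p = 0.00064) and by 0.99 (adjusted p = 0.0105), in the same strain order. Gstz1 fell in both strains as well, by 0.83 in 129S2SvPAs and by 0.67 in C57BL6J. Between controls 6 of these 17 genes were higher (4 with pairs) and 1 lower in 129S2SvPAs, where 3.32% of all genes were higher and 5.11% lower. Paralogs in this family are alike in sequence, and a probe set may read more than 1 of them. Of 8 tested genes of glutathione synthesis and recycling, Chac2, which encodes a glutathione-degrading enzyme, fell by 0.73 in 129S2SvPAs and by 0.78 in C57BL6J, and no other was called in either response without pairs. With pairs Ggct, a gamma-glutamylcyclotransferase, fell by 0.61 in C57BL6J (adjusted p = 0.0489). Ggct was also lower in 129S2SvPAs than in C57BL6J, with differences of -0.88 between challenged mice and -1.43 between controls. Glrx, a glutaredoxin, was higher in 129S2SvPAs, by 1.34 between challenged mice and by 1.20 between controls. The proximal tubule markers called in either strain's response were lower, as given above. Between controls 3 of 23 were higher and 1 lower in 129S2SvPAs (4 and 0 with pairs). Between challenged mice 0 were higher and 3 lower.

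Of 11 tested thioredoxins, peroxiredoxins and related repair genes, Prdx3, a mitochondrial peroxiredoxin, fell by 0.37 in 129S2SvPAs (adjusted p = 0.0253) and Sesn1, a sestrin, by 0.80 (adjusted p = 0.0212), and 0 were called in C57BL6J. With pairs Sesn1 fell there too, by 0.55, and Txnip, an inhibitor of thioredoxin, by 0.51. Of 9 tested genes of NADPH supply, Pgd, an enzyme of the pentose phosphate pathway, rose by 0.90 (adjusted p = 0.0114) and Nadk, the NAD kinase, by 0.42 (adjusted p = 0.0238) in 129S2SvPAs. Nnt, the mitochondrial transhydrogenase, fell there by 0.81 (adjusted p = 0.00846), and none of the 9 was called in C57BL6J. The C57BL6J strain is known for a deletion within Nnt. Its signal was 10.99 ± 0.23 in 129S2SvPAs controls against 9.72 ± 0.16 in C57BL6J controls (SD, n = 3 each), a difference of 1.27 (adjusted p = 0.0013). Me1, the cytosolic malic enzyme, was also higher in 129S2SvPAs, by 1.05 between challenged mice (adjusted p = 0.00477) and by 1.01 between controls (adjusted p = 0.00593).

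Downstream of heme oxygenase, biliverdin reductases did not follow Hmox1. Blvrb fell by 0.56 in 129S2SvPAs (adjusted p = 0.042) and by 0.65 in C57BL6J (adjusted p = 0.0483). Blvra, which turns biliverdin into bilirubin, fell by 0.76 in C57BL6J (adjusted p = 0.011). No other of the 9 tested genes of heme and iron handling was called in either response, except that with pairs Tfrc, the transferrin receptor, fell by 1.29 in C57BL6J (adjusted p = 0.0127). The scavenger genes Hpx and Cd163 stayed below the filter on every array.

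Of 15 tested further detoxification genes counted among NRF2 targets, 1 rose and 3 fell in 129S2SvPAs, and 2 rose and 0 fell in C57BL6J, or 3 and 2 with pairs. Of all genes 10.6% rose and 9.77% fell in 129S2SvPAs, and 4.78% rose and 2.31% fell in C57BL6J. Akr1b8, an aldo-keto reductase, rose by 2.28 in 129S2SvPAs (SE 0.30, adjusted p = 0.000504) and by 1.67 in C57BL6J (SE 0.30, adjusted p = 0.00786). Its signal was 6.22, 7.19 and 7.33 in 129S2SvPAs anti-GBM GN against 4.51, 4.41 and 4.97 in 129S2SvPAs controls, and 5.51, 5.80 and 6.20 in C57BL6J anti-GBM GN against 4.47, 3.79 and 4.25 in C57BL6J controls. Abcc1, an exporter of glutathione conjugates, rose by 0.78 in C57BL6J (adjusted p = 0.00579). In 129S2SvPAs Aldh1a1, an aldehyde dehydrogenase, fell by 1.60 (adjusted p = 0.00293), Ptgr1, a prostaglandin reductase, by 1.34 (adjusted p = 0.000251) and Ces2g, a carboxylesterase, by 1.24 (adjusted p = 0.000779). Aldh1a1 was 3.60 higher in 129S2SvPAs controls than in C57BL6J controls (adjusted p = 2.61e-05) and 2.15 higher between challenged mice (adjusted p = 0.000977).

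**Figure D5:**
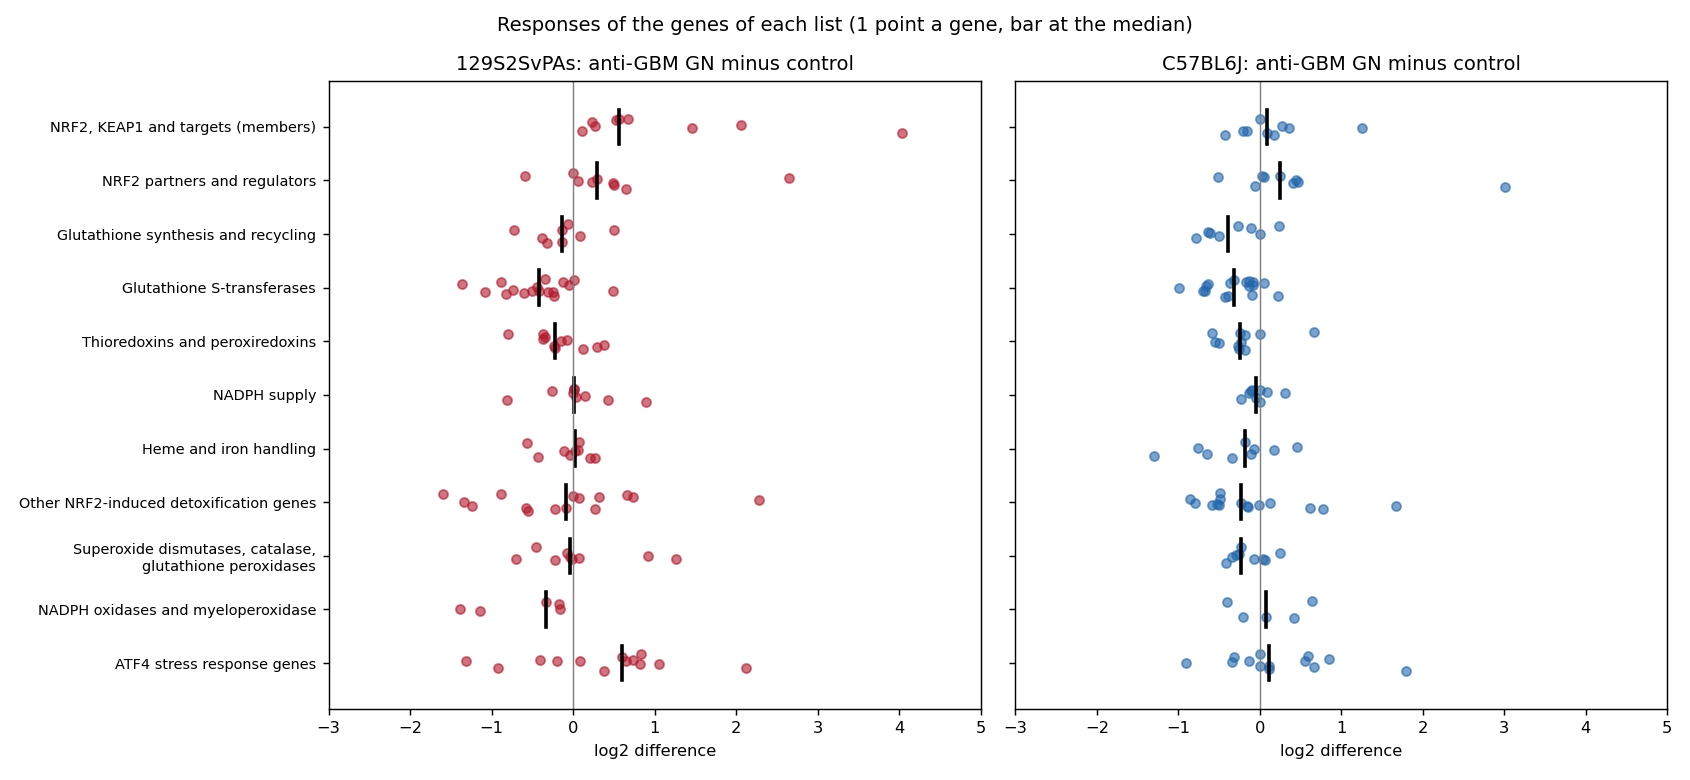
Log2 difference between anti-GBM GN and control arrays (horizontal axis) for the genes of each list, in 129S2SvPAs (left) and C57BL6J (right); a point is a tested gene, a black bar the list's median, and points are spread vertically for legibility. The members' median is 0.56 in 129S2SvPAs and 0.09 in C57BL6J, and that of the glutathione S-transferases is -0.42 and -0.32.

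Among 9 superoxide dismutases, catalase and glutathione peroxidases, 1 rose and 1 fell in 129S2SvPAs and 0 were called in C57BL6J. Gpx7, a peroxidase of the endoplasmic reticulum, gave 5.51, 5.66 and 5.61 in 129S2SvPAs anti-GBM GN, against 4.32, 4.43 and 4.24 in 129S2SvPAs controls. In C57BL6J it gave 6.02, 5.88 and 5.70 in anti-GBM GN, against 5.60, 5.67 and 5.60 in controls. It rose by 1.26 in 129S2SvPAs (SE 0.11, adjusted p = 3.83e-05), its responses differed by 1.02 (SE 0.15, adjusted p = 0.0228), and it was 1.29 lower in 129S2SvPAs between controls (log2 difference -1.29, adjusted p = 3.68e-05). Cat, which encodes catalase, fell by 0.71 in 129S2SvPAs (adjusted p = 0.0163).

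Of 5 tested NADPH oxidase genes, Nox4, an oxidase abundant in kidney, fell by 1.38 in 129S2SvPAs (adjusted p = 0.00503), and 0 were called in C57BL6J. Mpo, the myeloperoxidase of neutrophils, stayed below the filter on every array. Of 13 tested genes of the ATF4 stress response, which shares targets such as Slc7a11 with NRF2, 5 rose and 2 fell in 129S2SvPAs and 3 rose and 1 fell in C57BL6J, or 2 and 1 with pairs. The all-gene shares are the 10.6% and 9.77% and the 4.78% and 2.31% given for the lists above. Atf3 rose by 2.12 in 129S2SvPAs (adjusted p = 0.000222) and by 1.79 in C57BL6J (adjusted p = 0.00159). All 6 control arrays of Atf3 lay under the filter, so it was tested only through its challenged arrays. With those control values set to the filter the rises are at least 3.37-fold in 129S2SvPAs and 2.37-fold in C57BL6J. Atf4 rose by 1.05 (adjusted p = 0.000692) and by 0.59 (adjusted p = 0.0376, or 0.0563 with pairs), in the same strain order, and Cth, which makes cysteine, fell by 1.32 (adjusted p = 0.000127) and by 0.90 (adjusted p = 0.00288). Slc7a5, among the 5 that rose in 129S2SvPAs, had only 1 control array of that strain above the filter. With control values under the filter set to it, its rise is at least 1.53-fold. In the difference of the responses Gpx7 was the only gene called among these 10 lists, where 0.268% of all genes were called higher and 0.294% lower.

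Over the 12 arrays, Hmox1 followed Txnrd1 with a Pearson r of 0.948 and Cbr3 with 0.808, and Txnrd1 followed Cbr3 with 0.895, as a description only, since the arrays share 4 group means. After the group means were removed, r was 0.379 between Hmox1 and Txnrd1, -0.505 between Hmox1 and Cbr3 and -0.181 between Txnrd1 and Cbr3. The genes most like Hmox1 over the 12 arrays were Psmc2 (r = 0.969), Ptgs2 (r = 0.963) and Irx5 (r = 0.961). For Txnrd1 they were Dnajc5 (r = 0.961), Ppp1r14b (r = 0.96) and Selenoi (r = 0.959), and for Cbr3 Spry2 (r = 0.962), 1110008P14Rik (r = 0.948) and Phf5a (r = 0.922). For Srxn1 they were Plp2 (r = 0.925), Crem (r = 0.923) and Tubb4b (r = 0.921). On residuals from the group means Ppard led for Hmox1 (r = 0.964), Snap91 for Txnrd1 (r = 0.93), Tmem252 for Cbr3 (r = 0.946) and Pir for Srxn1 (r = 0.943). Over the 12 arrays Nfe2l2 was most like Atf6 (r = 0.967) and Keap1 most like Map1lc3a (r = 0.969). Gclc was most like Daxx (r = 0.931), Gclm most like Erich2 (r = 0.895) and Nqo1 most like Ccnh (r = 0.855).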

How the data were processed

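RNA of 12 samples of isolated mouse glomeruli was measured on 12 Affymetrix arrays, in 4 groups of 3 taken from the labels. The deposited table holds 1 log2 signal per probe set and array, with 2 decimals. The submitters' processing notes name MAS5 and GCRMA, with no version or role, and that the scale is log2 was taken from the range of values. Scan dates are not given in the sources used here, so no batch could be tested. Of 45037 probe sets 34945 had 1 gene symbol in the platform annotation, 932 several and 9160 none; 34741 were found by Entrez identifier in RefSeq's gene table (GRCm38.p6), which changed 0 symbols. A gene's probe set of highest mean represented it, and genes were tested whose signal passed 3.03, the median over the table, on at least 3 arrays.

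One mean per group was fitted with limma 3.58.1 in R 4.3.3 (10.7 total degrees of freedom), with contrasts for each strain's response, their difference and the strains within each treatment. Replicate numbers carry no stated pairing. Deviations from group means correlated between -0.38 and 0.33 over 18 pairs of arrays with the same number (median 0.152, above 0.1 in 11) and with a median of -0.062 over 36 pairs with different numbers. All 3 pairs passed 0.1 in the C57BL6J response (0.208 to 0.33) and between controls (0.239 to 0.284), and 1 of 3 in each of the other comparisons. The numbers were therefore taken as pairs in those comparisons, in a fit of their groups alone that was chosen after seeing the data. The fit was tested on simulated data. The alternatives were another scaling, quantile normalization, no filter or a stricter one at 6.06 (the upper quartile of the table), averaging a gene's probe sets, array weights, only the groups compared, a replicate block, the proximal tubule marker mean as a covariate, and leaving out each array. All 10 members are named, with up to 4 called genes of each list by lowest p and the 3 genes most like each member. The members and lists were chosen with earlier results of these data known. Motifs and figures were made with Python 3.11.15 and matplotlib 3.10.9.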

Additional observations from a re-analysis of the deposited data

Results flagged for a closer look

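The response to anti-GBM GN differed between the strains, by the test of the difference itself, for 2 of 9 tested members and 1 gene of the 10 lists. Of all genes 0.268% were called higher in that test and 0.294% lower. With single arrays left out, 11 to 130 of all genes were called in it, against 67. The 129S2SvPAs response exceeded the C57BL6J response by 2.26 on the log2 scale for Cbr3 (adjusted p = 0.0193), by 1.27 for Txnrd1 (adjusted p = 0.0222) and by 1.02 for Gpx7 (adjusted p = 0.0228), all in limma. The Cbr3 responses were 2.06 in 129S2SvPAs and -0.21 in C57BL6J, the Txnrd1 responses 1.45 and 0.18, and both genes were also higher in challenged 129S2SvPAs than in challenged C57BL6J mice. The Gpx7 response was 1.26 in 129S2SvPAs, whose controls had been 1.29 below the C57BL6J controls (log2 difference -1.29). Groups of 3 were not screened for single outlying arrays.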

How the results depend on the processing

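The 9 member results that were called kept their direction in all 187 alternatives run on them and were called in 165. Many of these alternatives could not move the difference. Changing the filter, adding a replicate block or fitting only the groups compared kept it the same. So did omitting an array of a group outside the comparison. Such alternatives could change the call but not the direction. The count of members called in the C57BL6J response was 1 with array weights, with only the groups compared and with those groups paired by number, against 0 (0 to 1 with single arrays left out), the added gene being Hmox1. In the 129S2SvPAs response it was 0 with the tubule covariate, against 4 (4 to 5); it was 3 with the mean of all probe sets and with only the groups compared (without Srxn1) and 5 with array weights (Nfe2l2 added). In the difference of responses it was 1 with the mean of all probe sets and 0 with the tubule covariate, against 2 (0 to 3), and 3 with array weights (Hmox1 added). Between controls it was 1 without the filter (Slc7a11, 0.11 higher in 129S2SvPAs, adjusted p = 0.0409, below 3.03 on every array), 1 with array weights and 1 with only the groups compared (Cbr3), against 0 (0 to 1). Between challenged mice it was 1 with the tubule covariate (Txnrd1), against 3 (3 with any array left out), and 4 with array weights (Gclm) and with the mean of all probe sets (Nfe2l2). The strain difference of Nfe2l2 between challenged mice was 0.59 with the mean of all probe sets, against -0.06. Over all genes, 845 were called in the C57BL6J response (1281 with the groups compared and paired, an alternative chosen after seeing the data, of which 714 in both; 2022 with array weights, 301 with the covariate, 385 to 1140 without single arrays) and 2424 in the 129S2SvPAs response (3827 with weights, 1415 with only the groups compared, 0 with the covariate, 1761 to 2642). The difference had 67 (18 with the stricter filter, 286 with weights, 33 with the replicate block, 2 with the covariate, 11 to 130), controls had 1005 (1601 with weights, 591 with the covariate, 503 to 1288) and challenged mice 999 (2256 with weights, 578 with only the groups compared, 200 with the covariate, 587 to 1119). The replicate block over all 12 arrays changed no member's call, with an adjusted p of 0.0383 for the Cbr3 difference and 0.0254 for that of Txnrd1. The Txnrd1 difference was not called without 7 of the 12 arrays and the Cbr3 difference without 4. Srxn1 lost its call with the mean of all probe sets (0.27), with only the groups compared (0.67) and with the covariate (0.97). The cause of these changes was not tested, beyond the fewer arrays of the smaller fits. With 3 arrays a group and many genes near the floor, small or low changes were not detectable.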

Other observations

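The number of probe sets with exactly the same deposited value differed between pairs of arrays. In 129S2SvPAs it was 12530 of 45037 between the challenged and the control array numbered 1, 11425 between those numbered 2 and 8052 between those numbered 3. Array 3 of 129S2SvPAs anti-GBM GN shared 1669 and 1203 such values with arrays 1 and 2 of its own group. In C57BL6J the challenged and control arrays numbered 1 shared 9337, those numbered 2 shared 2165 and those numbered 3 shared 1941. Challenged array 2 of C57BL6J shared 8477 with challenged array 2 of 129S2SvPAs. Control arrays 2 and 3 of C57BL6J shared 8218, so ties in C57BL6J did not follow the numbers alone. No pair of arrays was identical.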
